A study of Rattus norvegicus with 8 samples.

Results

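The miR-34 family was examined in rat kidney after removal of the opposite kidney. Its members were taken by name from the array: every entry called rno-miR-34a, rno-miR-34b or rno-miR-34c, of either arm, which gave 6 of the 758 miRNAs. Of these 6, the guide strands rno-miR-34a-5p, rno-miR-34b-5p and rno-miR-34c-5p were detected on at least 4 of the 8 arrays and were tested among 238 miRNAs. The passenger strands rno-miR-34a-3p, rno-miR-34b-3p and rno-miR-34c-3p were detected on 0 of 8 arrays. The rule for members used names alone, but it was set with earlier results of these data known.

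All rats were males of the inbred Fischer strain F344/NSlc, aged 10 weeks, and the RNA was that of the right kidney. The sham group comprised 4 arrays from rats with a sham operation, and the nephrectomized group 4 arrays from rats left with the right kidney alone. No transgene or drug is named for either group. In the labels the time after surgery is 1 day for sham but 2 days for nephrectomized samples, while the study's description names 2 days, so that surgery and time cannot be told apart if the sample labels are right. Each array was taken as 1 rat, as the n of 4 in the description implies, and otherwise the p-values would measure only the spread between samples. The remaining kidney enlarges after such an operation, and the comparison asks which miRNAs differ during that growth.

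The miR-34 genes are known as direct transcriptional targets of p53, the tumour suppressor that responds to DNA damage. Their guide strands repress mRNAs of cell cycle and survival proteins, among them cyclin-dependent kinases, MET and BCL2. miR-34a has a gene of its own and is made in many tissues. miR-34b and miR-34c are cut from a shared transcript that is best known from multiciliated cells of airway and oviduct, where they act together with the miR-449 family.

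The guide strands are shown first because a shared seed is what makes these miRNAs a family. The seed, bases 2 to 8 counted from the 5′ end, is in capitals, and the sequences are the mature forms in RefSeq on build GRCr8. All 6 family entries and the 4 miR-449 entries were matched by name.
rno-miR-34a-5p: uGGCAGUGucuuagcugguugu
rno-miR-34b-5p: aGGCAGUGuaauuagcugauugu
rno-miR-34c-5p: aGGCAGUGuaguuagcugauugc
rno-miR-449a-5p: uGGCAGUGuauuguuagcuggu
rno-miR-449c-5p: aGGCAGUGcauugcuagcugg
These 5 were the only ones of 693 mature rat miRNAs in the RefSeq table to carry the seed GGCAGUG, and all 5 had probes on the array. miR-34b-5p and miR-34c-5p differed at A11G and U23C, counted from the 5′ end of the mature strand with the miR-34b base first. miR-34a-5p stood 4 edits from miR-34b-5p and 5 from miR-34c-5p, where an edit is a substituted, inserted or lost base. The passenger strands of miR-34b and miR-34c share the seed AUCACUA, which miR-34a-3p, with AUCAGCA, does not have.

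The genes lie at separate places in build GRCr8. Mir34a spans bases 165815952 to 165816053 of chromosome 5, on the plus strand, wholly within the span of the long non-coding RNA gene LOC103692514. Its guide strand occupies bases 165815971 to 165815992. Mir34b (bases 60306609 to 60306692) and Mir34c (bases 60306091 to 60306167) lie on the minus strand of chromosome 8, with 441 bases between them. Mir34c falls wholly within the span of Hoatz, a gene known for a role in motile cilia, and Mir34b overlaps that span by 79 of its 84 bases. The protein-coding gene Btg4 starts or ends 397 bases from Mir34b. Exons and introns within these spans were not analysed here.

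The longest probe of each member is shown because miR-34b and miR-34c are close enough to share signal. Each probe is a DNA strand complementary to its miRNA, written 5′ to 3′. In the miR-34b and miR-34c probes, capitals mark the bases that differ between them.
rno-miR-34a-5p: acaaccagctaagacactgc
rno-miR-34b-5p: AcaatcagctaaTtacactgcc
rno-miR-34c-5p: GcaatcagctaaCtacactg
The miR-34b and miR-34c probes differed at A1G and T13C, counted from the 5′ end of the probe with the miR-34b base first. They pair with bases 2 to 23 and 4 to 23 of their miRNAs, and the miR-34a probe with bases 3 to 22. Cross-hybridisation between miR-34b-5p and miR-34c-5p was not tested, and their signals are uncertain to that extent. In build rn4, as the deposited files give it, these probes map to bases 167187919 to 167187937 of chromosome 5, bases 54422585 to 54422605 of chromosome 8 and bases 54422068 to 54422086 of chromosome 8.

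Each array held 12128 spots, and 242 to 253 miRNAs were detected on a sham array against 224 to 230 on a nephrectomized array. Before scaling, the nephrectomized arrays were dimmer: their 75th percentile ran from 7.28 to 7.49 on the log2 scale, against 7.57 to 7.83 in the sham arrays. The labelling spike-ins, RNAs added in fixed amounts before labelling, averaged 10.56 ± 0.036 (SD, n = 4) in sham arrays and 10.20 ± 0.18 (SD, n = 4) in the others on the log2 scale. All 8 arrays sat on 1 slide, with the sham arrays in its first row and the nephrectomized arrays in its second row, so slide row and group cannot be told apart. All 6 kidney tubule miRNAs checked, miR-192-5p and miR-204-5p among them, were detected on every array. The summed scaled signal of the 6 ran from 6937 to 7204 in sham and from 6677 to 7072 in nephrectomized kidneys, while liver miR-122-5p was detected on 0 of 8.

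Signals below were scaled to a common 75th percentile and are in arbitrary units. Probes bind with unlike strength, so the signal of one member says nothing of its amount against another member. Each value is a mean over whole kidney tissue, in which fewer cells of a type and less RNA per cell cannot be told apart.

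miR-34a-5p, the p53-induced member made in many tissues, was readily measured and did not differ detectably between the groups. Its scaled signal was 48.5, 53.8, 51.1 and 62.8 in sham replicates 1 to 4. It was 53.5, 48.8, 51.1 and 49.98 in nephrectomized replicates 1 to 4. Sham replicate 4 was the highest of the 8 arrays, and the other 7 lay between 48.5 and 53.8, so the groups overlapped. The means were 54.1 ± 6.22 (SD, n = 4) in sham and 50.8 ± 2.00 (SD, n = 4) in nephrectomized kidneys. On the log2 scale the levels were 5.75 ± 0.16 and 5.67 ± 0.056 (SD, n = 4). The log2 difference, nephrectomized minus sham, was -0.083 ± 0.079 (SE), with a 95% interval from -0.27 to 0.10 (limma, Benjamini-Hochberg adjusted p = 0.577). As a fold, that interval ran from 0.832 to 1.07. Without sham replicate 4 the difference was -0.0083, with an adjusted p of 0.943 in limma.

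Both probes of miR-34a-5p had slightly lower means after nephrectomy. The 19-base probe averaged 38.8 ± 4.82 (SD, n = 4) in sham and 36.7 ± 0.620 (SD, n = 4) in nephrectomized kidneys. The 20-base probe averaged 69.3 ± 7.69 and 64.9 ± 3.38 (SD, n = 4). Their log2 differences were -0.071 and -0.089. The 19-base probe stood at 35.1, 37.9, 36.2 and 45.8 in sham replicates 1 to 4 and ran from 36.1 to 37.5 in nephrectomized kidneys. Its lower mean therefore rested on sham replicate 4, the highest array for both probes. All 64 miR-34a-5p spots of either group were well above background.

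miR-34b-5p, of the cluster known from ciliated cells, lay close to the limit of detection. Its scaled signal was 7.26, 7.52, 6.97 and 7.14 in sham replicates 1 to 4. It was 6.59, 6.60, 5.77 and 8.30 in nephrectomized replicates 1 to 4. The nephrectomized arrays held both the lowest and the highest value, and nephrectomized replicate 4 alone exceeded the sham arrays. The log2 levels were 2.85 ± 0.046 in sham and 2.76 ± 0.22 (SD, n = 4) in nephrectomized kidneys. The difference was -0.096 ± 0.10 (SE), with a 95% interval from -0.33 to 0.14 (limma adjusted p = 0.606). Without nephrectomized replicate 4 it was -0.19 and without nephrectomized replicate 3 it was -0.020, and neither passed the test.

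miR-34c-5p, its partner from the shared transcript, had the difference farthest from 0 of the 3. Its scaled signal was 5.07, 5.94, 5.75 and 5.94 in sham replicates 1 to 4. It was 4.67, 5.38, 5.55 and 4.98 in nephrectomized replicates 1 to 4. The sham values lay mostly higher, but sham replicate 1 fell among the nephrectomized arrays. The log2 levels were 2.50 ± 0.11 in sham and 2.36 ± 0.11 (SD, n = 4) in nephrectomized kidneys. The difference was -0.14 ± 0.074 (SE), with a 95% interval from -0.31 to 0.028 (limma adjusted p = 0.302, unadjusted p = 0.0901). As a fold, the interval ran from 0.805 to 1.02.

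**Figure D1:**
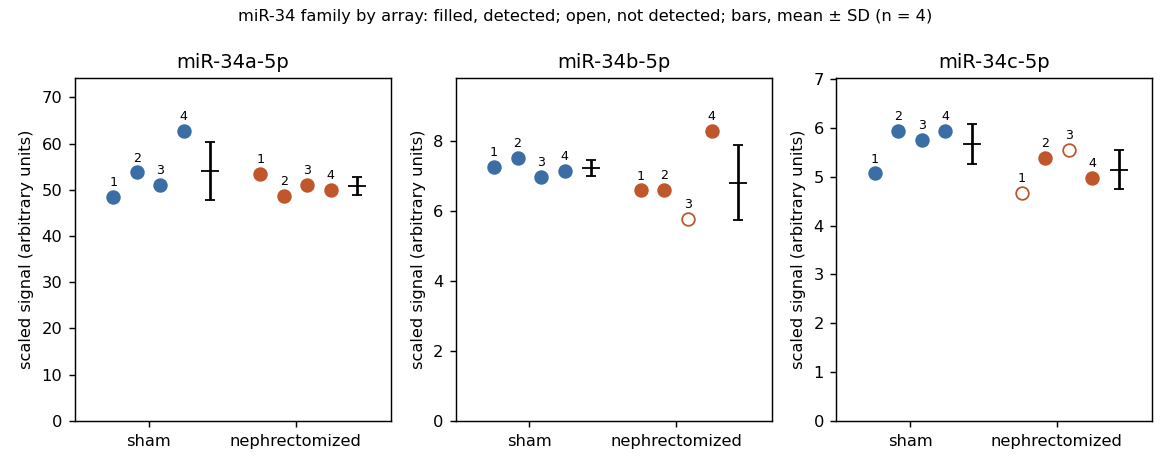
Scaled signal in arbitrary units of the 3 miR-34 guide strands on each of the 8 arrays, numbered by replicate, with filled points for arrays on which the miRNA was detected, open points where it was not, and bars for the mean ± SD of 4 arrays. The groups overlap for each member, sham replicate 4 stands highest for miR-34a-5p at 62.8, and nephrectomized replicate 4 stands highest for miR-34b-5p at 8.30.

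All 3 guide strands had a difference below 0, as did 52.5% of the tested miRNAs, and the median difference over all 238 was -0.0077. None passed the adjusted threshold of 0.05, which 0% of the tested miRNAs passed in limma (0 of 238, with 48 at an unadjusted p under 0.05, or 20.2%, and 7 with limma's trend and robust fitting). At an unadjusted p under 0.05, 0 of the 3 were lower after nephrectomy, against 4.62% of the tested miRNAs. The groups overlapped for all 3, whereas they did not for 14.7% of the tested miRNAs. By p, miR-34c-5p ranked 71, miR-34a-5p 135 and miR-34b-5p 145 among the 238.

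Detection differed between the members. miR-34a-5p was detected on 8 of 8 arrays. For miR-34b-5p, detection held on 4 of 4 sham but 3 of 4 nephrectomized arrays, with replicate 3 lost. For miR-34c-5p it held on 4 of 4 sham but 2 of 4 nephrectomized arrays, with replicates 1 and 3 lost. Among the 264 miRNAs detected on at least 1 array, 46 (17.4%) were detected on fewer nephrectomized than sham arrays and 2 on more. Among the 24 tested miRNAs that were not detected on every array, 22 had fewer detections after nephrectomy, miR-34b-5p and miR-34c-5p included.

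Fewer spots were well above background after nephrectomy. Of 64 miR-34b-5p spots in each group, 22 were well above background in sham and 6 in nephrectomized kidneys. For miR-34c-5p the counts were 17 of 64 and 1 of 64. Per array, miR-34b-5p had 4 to 6 such spots in sham and 0 to 4 in nephrectomized kidneys, and miR-34c-5p 1 to 6 and 0 to 1. The share over the spots of all miRNAs is not given here, so whether the drop is particular to these members was not tested. The detection and background calls are made before any scaling, and the part of the lower overall brightness of the nephrectomized arrays in them was not tested.

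The unscaled signals show how close these probes come to background. miR-34c-5p stood at 5.16, 6.25, 6.97 and 6.59 in sham replicates 1 to 4 before scaling. It stood at 4.38, 4.46, 4.88 and 4.79 in nephrectomized replicates 1 to 4, below every sham array, a separation that 52.5% of the tested miRNAs showed before scaling. miR-34b-5p ran from 7.38 to 8.44 in sham and from 5.07 to 7.98 in nephrectomized kidneys, which overlap. The spots of the negative controls averaged 2.06 to 2.53 per array, with an SD over spots of 1.77 to 2.15.

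The probes of the cluster members did not all move alike. The 20-base probe of miR-34c-5p averaged 9.25 ± 1.08 in sham and 8.11 ± 0.591 (SD, n = 4) in nephrectomized kidneys after scaling, a log2 difference of -0.18. Its 19-base probe averaged 2.10 ± 0.551 and 2.18 ± 0.634 (SD, n = 4), a log2 difference of +0.048. That shorter probe stood among the negative controls, with unscaled values of 1.36 to 2.75 over the 8 arrays. Both probes of miR-34b-5p had lower means after nephrectomy: the 21-base probe averaged 4.33 ± 0.399 and 3.99 ± 0.701, and the 22-base probe 10.1 ± 0.350 and 9.64 ± 1.43 (SD, n = 4).

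**Figure D2:**
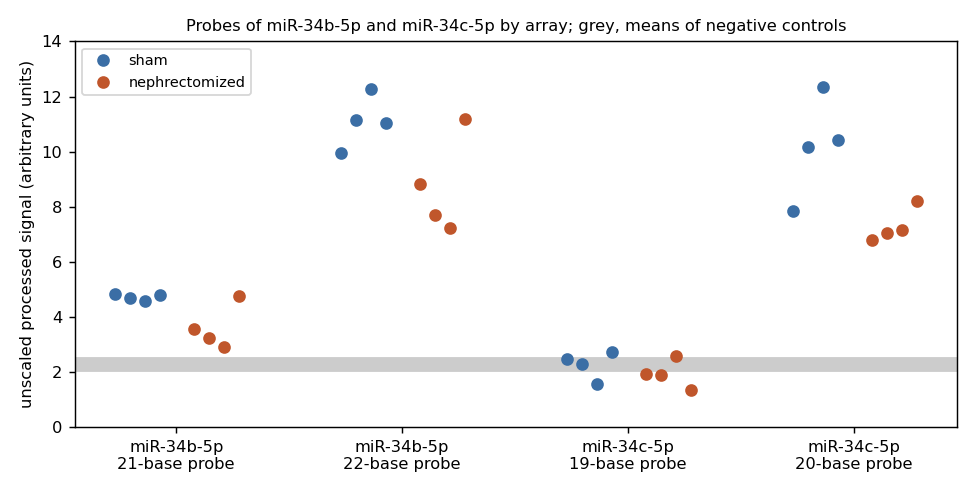
Unscaled processed signal in arbitrary units of each miR-34b-5p and miR-34c-5p probe on 4 sham and 4 nephrectomized arrays, with a grey band for the range of the negative control means over arrays (2.06 to 2.53). The 19-base probe of miR-34c-5p lies at or around the band in both groups, and the other probes lie above it. The 21-base probe of miR-34b-5p comes closest of these, down to 2.90 in nephrectomized replicate 3. The band does not show the SD over control spots, 1.77 to 2.15.

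Because the whole arrays differed in brightness, the scaling set whether the members were called. Without scaling, all 3 lay below sham past the threshold, as did 67.2% of the tested miRNAs, and the median of all tested was -0.29. The unscaled differences were -0.36 for miR-34a-5p (limma adjusted p = 0.0203), -0.38 for miR-34b-5p (limma adjusted p = 0.0296) and -0.42 for miR-34c-5p (limma adjusted p = 0.00839). With the percentile taken over all miRNAs, miR-34c-5p alone of the 3 passed, at -0.25 (limma adjusted p = 0.0472), with 7.56% of the tested miRNAs called lower and a median of -0.11. Relative to the median of all tested miRNAs, the members stood at -0.075, -0.088 and -0.13 for miR-34a-5p, miR-34b-5p and miR-34c-5p under each of these scalings and under the main one. These values are equal by construction, because the settings differ only by a single factor per array.

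The direction turned with normexp, a model-based background correction run here with an added offset of 50 units. The parts of the correction and of the offset in this were not tested. With it, 57.1% of the tested miRNAs were called higher after nephrectomy and the median was +0.13. miR-34b-5p and miR-34c-5p were among those called, at +0.19 each (limma adjusted p = 0.00304 for both), whereas miR-34a-5p stood at +0.041 and did not pass (limma adjusted p = 0.402). Relative to the median, these were +0.062, +0.058 and -0.086. Over all alternatives the adjusted p ran from 0.0203 to 0.986 for miR-34a-5p, from 0.00304 to 0.982 for miR-34b-5p and from 0.00304 to 0.971 for miR-34c-5p.

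**Figure D3:**
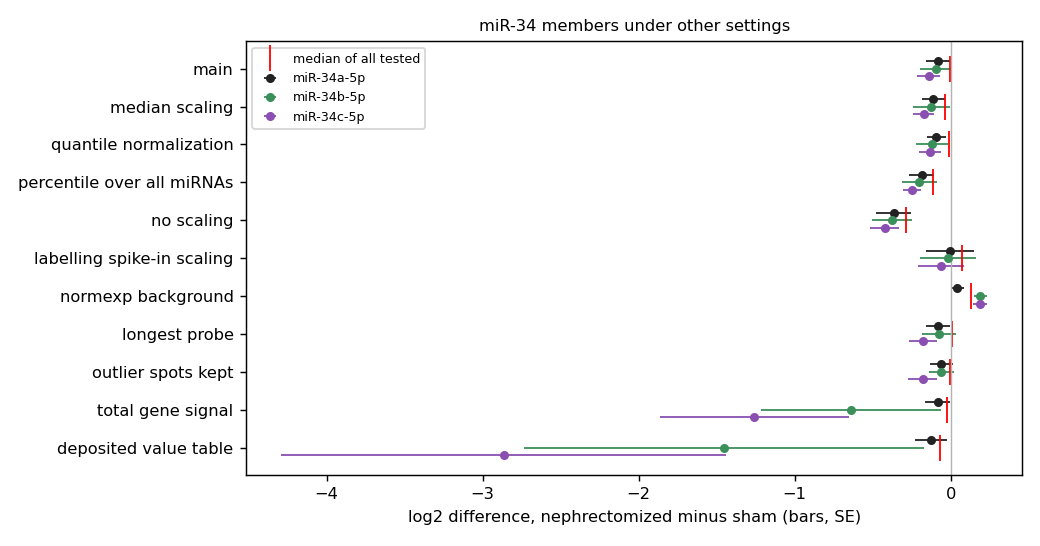
Log2 difference, nephrectomized minus sham, of the 3 miR-34 guide strands (points, with SE bars) and the median over all tested miRNAs (red marks) under the main processing and 10 alternatives. The members move with the median by construction where each array is scaled by a single factor, and they stand above 0 under normexp. The cluster members reach -1.45 and -2.86 in the deposited value table, where undetected values carry a total signal of 0.1.

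Whether miR-34a-5p and the miR-34b/34c cluster responded differently was asked from ratios taken within each array, in which any scaling cancels. The log2 ratio of miR-34a-5p over miR-34b-5p was 2.74, 2.84, 2.88 and 3.14 in sham replicates 1 to 4. It was 3.02, 2.89, 3.15 and 2.59 in nephrectomized replicates 1 to 4. The nephrectomized arrays spanned the whole sham range, and the difference of the means was +0.013 (exact two-sided permutation test, p = 0.857).

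The log2 ratio of miR-34a-5p over miR-34c-5p was 3.26, 3.18, 3.15 and 3.40 in sham replicates 1 to 4. It was 3.52, 3.18, 3.20 and 3.33 in nephrectomized replicates 1 to 4. The groups overlapped, and the difference was +0.060 (exact two-sided permutation test, p = 0.571). The ratio of miR-34b-5p over miR-34c-5p averaged 0.35 ± 0.12 in sham and 0.40 ± 0.29 (SD, n = 4) in nephrectomized kidneys on the log2 scale, a difference of +0.047 (exact two-sided permutation test, p = 0.829). Adjusted over the 3 pairs, each p was 0.857.

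The signs of these differences rested on single arrays. Leaving out 1 array gave -0.066 (without nephrectomized replicate 3) to 0.12 for miR-34a-5p over miR-34b-5p. It gave -0.011 (without nephrectomized replicate 1) to 0.11 for miR-34a-5p over miR-34c-5p and -0.067 (without nephrectomized replicate 4) to 0.16 for miR-34b-5p over miR-34c-5p. With normexp, the 2 ratios of miR-34a-5p were -0.15 and -0.14, with an exact permutation p of 0.0857 after adjustment. With 4 arrays a group and 3 pairs, 0.0857 is the lowest adjusted p that a single ratio can reach on its own. A lone ratio could therefore not pass 0.05, however far apart the groups lay. A difference in response between miR-34a and the cluster was not detected, and the data do not show that the responses were alike.

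**Figure D4:**
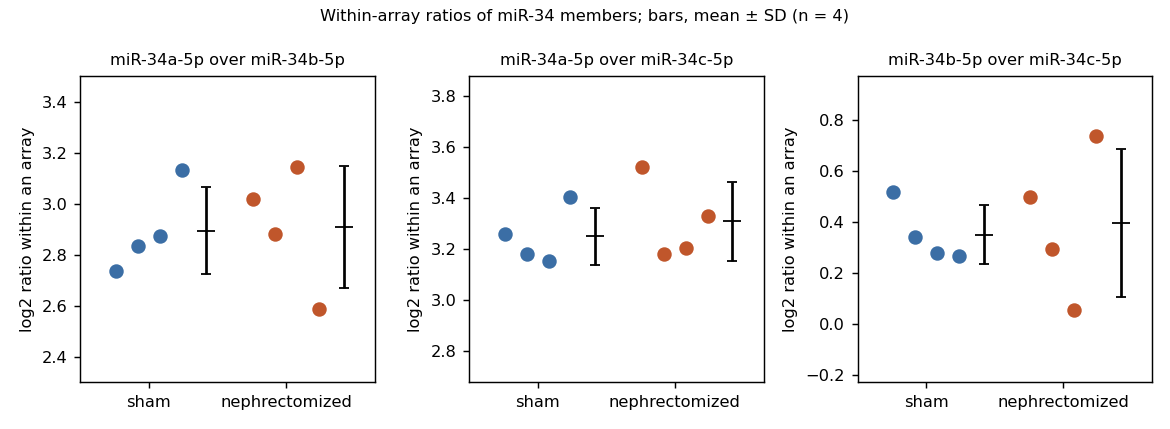
Log2 ratio of each pair of miR-34 guide strands within an array, for 4 sham and 4 nephrectomized arrays, with bars for the mean ± SD. Each panel spans the same height of log2 units, and the groups overlap in all 3.

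The passenger strands and the miR-449 relatives were not well above background. All 3 passenger strands had 0 of 64 spots well above background in each group. The unscaled signal of miR-34b-3p ran from 0.854 to 1.79 over the 8 arrays, and those of miR-34a-3p and miR-34c-3p were below 0 on all 8 arrays. miR-449a-5p and miR-449c-5p, which carry the same seed and are the defining markers of multiciliated cells used here, were detected on 0 of 8 arrays, as were their passenger strands. Beside miR-34b-5p and miR-34c-5p these complete the marker list of multiciliated cells, whose summed scaled signal ran from 14.2 to 15.4 in sham and from 13.2 to 15.2 in nephrectomized kidneys. No fold is given for the strands detected in neither group.

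Across the 8 arrays, the miRNAs whose log2 level followed miR-34a-5p most closely were miR-183-5p, miR-203a-3p, miR-96-5p, miR-203b-3p and miR-872-5p. Their Pearson r with miR-34a-5p was 0.966, 0.942, 0.935, 0.919 and 0.919, and these were the 5 of 237 other tested miRNAs with an r above 0.9. The median r over the 237 was -0.070. The values are a description without a p, because the 5 were picked for their r and the arrays share a slide and a scaling. miR-183 and miR-96 are cut from a shared transcript together with miR-182 and are best known from sensory cells of ear and eye. miR-203 is best known from the differentiating skin. miR-182, named after its values were seen, had an r of 0.883.

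The likeness was as close within the groups: with each group's mean removed, r was 0.981 for miR-183-5p, 0.958 for miR-203a-3p and 0.936 for miR-96-5p. The scaled signal of miR-183-5p was 8.83, 12.6, 10.7 and 26.1 in sham replicates 1 to 4. It was 15.8, 8.86, 13.0 and 10.1 in nephrectomized replicates 1 to 4. As with miR-34a-5p, sham replicate 4 was the highest array, and nephrectomized replicate 1 the highest of its group.

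miR-96-5p also had its highest value in sham replicate 4, with nephrectomized replicate 1 next. Its scaled signal was 17.6, 29.5, 26.1 and 57.4 in sham and 37.4, 17.8, 29.4 and 18.3 in nephrectomized replicates 1 to 4. Without the 2 arrays farthest from the median of miR-34a-5p, sham replicates 1 and 4, r was 0.859 for miR-183-5p, 0.881 for miR-96-5p and 0.949 for miR-203a-3p. It fell to 0.580 for miR-203b-3p and 0.680 for miR-872-5p, so these last values rested largely on those arrays. Without sham replicate 4 alone, r was 0.894 for miR-183-5p, 0.908 for miR-96-5p and 0.846 for miR-203a-3p. Spearman's rho over the 8 arrays was 0.881, 0.952 and 0.833 for miR-183-5p, miR-96-5p and miR-203a-3p. Between groups, the log2 differences were -0.19 ± 0.34 (SE) for miR-183-5p, -0.28 ± 0.39 for miR-96-5p and -0.17 ± 0.093 for miR-203a-3p, with adjusted p-values of 0.780, 0.701 and 0.321 in limma.

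**Figure D5:**
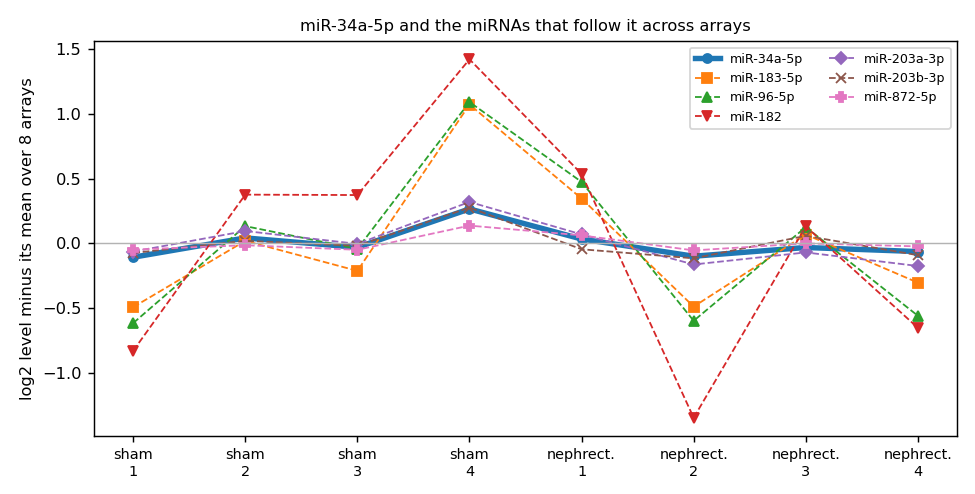
Log2 level of miR-34a-5p (thick line) and 6 miRNAs that follow it, each minus its own mean, over 4 sham and 4 nephrectomized arrays. The lines join separate rats and mark no order. Sham replicate 4 is the highest array for all 7, and the spread of miR-182, miR-183-5p and miR-96-5p is wider than that of miR-34a-5p. The values of miR-182 lie near the floor, and at it in nephrectomized replicate 2.

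No miRNA followed miR-34b-5p as closely under the main processing. The highest r with miR-34b-5p was 0.689, for miR-3584-5p, and 0 of 237 exceeded 0.7. That value was 0.895 without scaling and 0.912 without nephrectomized replicate 4. Over all alternatives it ranged from 0.248 to 0.925, and the r of miR-30b-3p with miR-34b-5p from 0.053 to 0.991. The contrast with miR-34a-5p thus depends on the processing. Among the family itself, r over the 8 arrays was 0.044 between miR-34a-5p and miR-34b-5p and 0.46 between miR-34a-5p and miR-34c-5p. miR-34b-5p and miR-34c-5p, cut from a shared transcript, had an r of -0.061, at levels near the limit of detection.

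Other miRNAs tied to p53 were read from lists. Of 10 miRNAs on the list of p53-induced transcripts, the 3 members included, 9 were tested and 0 passed after adjustment in limma. Their median log2 difference was -0.083, against -0.0077 for all tested miRNAs. That median is the value of miR-34a-5p itself, and all 3 members count in it. It therefore does not describe the other listed miRNAs apart from the family. At an unadjusted p under 0.05, 1 was higher and 2 were lower, against 20.2% of all tested miRNAs in either direction and 4.62% lower. The higher one was miR-192-5p, a miRNA abundant in kidney tubules. It had log2 levels of 10.67 ± 0.018 after the sham operation and 10.76 ± 0.019 (SD, n = 4) after nephrectomy. The difference was +0.088 ± 0.030 (SE, limma adjusted p = 0.138), with no overlap between groups, as for 14.7% of the tested miRNAs. That direction turned to -0.19 without scaling.

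The lower ones were the epithelial partners miR-200c-3p and miR-141-3p, which repress the EMT factors ZEB1 and ZEB2. miR-200c-3p stood at 3.22 ± 0.16 and 3.45 ± 0.13 (SD, n = 4) in nephrectomized and sham kidneys, a difference of -0.23 ± 0.093 (SE, limma adjusted p = 0.202). miR-141-3p stood at 4.59 ± 0.069 and 4.81 ± 0.19 (SD, n = 4), a difference of -0.22 ± 0.093 (SE, limma adjusted p = 0.233). Both were above 0 with normexp, at +0.14 and +0.070. miR-215, a sequence relative of miR-192, was detected on 0 of 8 arrays. The other tested members of the list, miR-194-5p, miR-107-3p and miR-15a-5p, differed by +0.0057, +0.058 and -0.029. Of these, miR-107-3p also had no overlap between groups, with the higher values after nephrectomy.

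The remaining lists held no member with an unadjusted p under 0.05, which 20.2% of all tested miRNAs had. Of 4 miRNAs whose processing p53 is known to aid, 3 were tested, with a median of -0.014. In this list miR-16-5p, a repressor of cell cycle genes, differed by -0.014 ± 0.035 (SE) and miR-145-5p, a smooth muscle miRNA, by -0.025 ± 0.062. Of 6 miRNAs of the p53-repressed miR-17-92 cluster, 5 were tested, with a median of -0.0036. Its members miR-19a-3p and miR-19b-3p differed by -0.12 ± 0.14 and -0.12 ± 0.10 (SE). These became -0.25 and -0.22 without sham replicate 1, and -0.056 and -0.065 without sham replicate 4. Of 5 miRNAs reported to bind the p53 mRNA, 4 were tested, with a median of +0.019. Among these, miR-25-3p differed by +0.051 ± 0.045 and miR-33-5p by +0.077 ± 0.13 (SE), and miR-504 was detected on 0 of 8 arrays. miR-25-3p stood at +0.019 without nephrectomized replicate 3 and +0.082 without nephrectomized replicate 1. miR-33-5p stood at -0.015 without nephrectomized replicate 2, at -0.0074 without sham replicate 1 and at +0.18 without sham replicate 2.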

How the data were processed

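The deposited scanner tables hold intensity values, which per the file headers come from Feature Extraction 12.0.3.1, Agilent's image software, and are background-subtracted. Calls of detection, outlier spots and spots well above background are other columns, of 0 or 1, in the deposited tables. An alternative started from the series-wide deposited table of log2 values, whose making is not given in the sources used here. Its values for 623 miRNAs equalled the log2 total gene signal of the scanner tables to within 1.1e-05, after a shift per array and per miRNA. That signal was 0.1 for all 3114 undetected values.

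Control and outlier spots (8.10% to 9.01% per array) were left out. Spots of a probe and then probes of a miRNA were averaged. The 214 miRNAs that all 8 arrays detected gave the 75th percentile to which an array was scaled. Values under a floor of 0.956, 0.5 of the median SD of the negative controls, were set to it, and log2 was taken. The 238 miRNAs detected on at least 4 arrays entered a fit on group alone (R 4.3.3, limma 3.58.1, lmFit and eBayes). Its two-sided p-values were adjusted by Benjamini-Hochberg, and the threshold was 0.05. Precision is limited by the number of arrays, with a median SE of 0.067. Ratios within arrays were tested by exact permutation (scipy 1.17.1).

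Replicate numbers did not pair the arrays: deviations of equal-numbered arrays correlated at 0.048, -0.083, 0.28 and -0.23. With 1 slide, it could not be fitted as a block.

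The members and lists were chosen with earlier results of these data known. Named were all family entries, the miR-449 relatives, the 5 tested miRNAs most correlated with miR-34a-5p and with miR-34b-5p, and, of each p53 list, members with an unadjusted p under 0.05 or else the 2 of lowest p. Alternatives covered scaling, background, probe summary, floor, filter, variance model and leaving out each array.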

Additional observations from a re-analysis of the deposited data

Results flagged for a closer look

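In 2 of 36 groups of 4 arrays searched, 1 array stood far from the others by Dixon's criterion, against 1.8 expected where chance marks about 1 in 20. miR-19a-3p stood at a log2 level of 3.54 in sham replicate 1, while the other sham arrays lay between 4.03 and 4.13. miR-33-5p stood at 2.35 in nephrectomized replicate 2, while the others of its group lay between 1.96 and 2.00. No member of the miR-34 family had such an array.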

How the results depend on the processing

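The 0 called miRNAs of the main processing became 19 with the percentile over all miRNAs, 161 without scaling, 1 with quantile normalization, 1 with the labelling spike-ins, 156 with normexp, 7 with the total gene signal, 5 with the longest probe, 4 with a floor 4 times higher, 5 in the deposited table, 1 among miRNAs detected on all arrays and 7 with trend and robust fitting. Leaving out 1 array gave 0 to 5 (5 without nephrectomized replicate 3, 1 without nephrectomized replicate 1). The split was 1 higher and 18 lower, 1 and 160, and 136 and 20 with the percentile over all miRNAs, no scaling and normexp. For miR-34a-5p, 21 of 23 alternatives kept direction and call, for miR-34b-5p 20 of 22 and for miR-34c-5p 19 of 22. The exceptions were no scaling (-0.36, -0.38 and -0.42, all called), normexp (+0.041, +0.19 and +0.19, the last 2 called) and, for miR-34c-5p, the percentile over all miRNAs (-0.25, called). The higher floor, the other filters, trend and robust fitting and the replicate block left the log2 differences of the members as they were. In these settings only the call could change, so their kept direction adds nothing to the counts. miR-34b-5p and miR-34c-5p stood at -0.64 and -1.26 with the total gene signal and at -1.45 and -2.86 in the deposited table, none called. Undetected values carry a total signal of 0.1 by construction. The fit on the total gene signal raised them to the floor of 0.956, whereas that on the deposited table did not. Left-out arrays gave -0.13 to -0.0083, -0.19 to -0.020 and -0.20 to -0.097 for the 3 members. The ratio of miR-34a-5p over miR-34b-5p was -0.15 with normexp and -0.0096 with the longest probe, that over miR-34c-5p -0.14 with normexp. With 1 array left out, the 3 ratios ran from -0.066 to 0.12, -0.011 to 0.11 and -0.067 to 0.16. The first was also below 0 without sham replicate 1 (-0.039), sham replicate 2 (-0.0066) and nephrectomized replicate 1 (-0.023). Normexp turned miR-141-3p to +0.070, miR-145-5p to +0.13, miR-19a-3p to +0.14 and miR-200c-3p to +0.14. The spike-ins turned miR-145-5p to +0.053 and miR-16-5p to +0.064, and the longest probe turned miR-145-5p to +0.049. The percentile over all miRNAs and no scaling turned miR-192-5p to -0.017 and -0.19, miR-25-3p to -0.054 and -0.23, and miR-33-5p to -0.028 and -0.21. With 1 array left out, miR-145-5p ran from -0.060 to 0.0064, miR-16-5p from -0.034 to 0.0029 and miR-33-5p from -0.015 to 0.18. Where a cause is not named, the cause was not tested. With the replicate number as a block, the replicate block left 0 miRNAs called and the members at -0.083, -0.096 and -0.14 (limma adjusted p = 0.645, 0.602 and 0.231), and changed no other call. The r of miR-34a-5p with miR-183-5p ranged from 0.743 to 0.986 over the alternatives, and that with miR-203b-3p from 0.580 to 0.981. With miR-203a-3p it ranged from 0.740 to 0.988, with miR-96-5p from 0.634 to 0.956 and with miR-872-5p from 0.603 to 0.987. Signal close to background limits what can be said of miR-34b-5p and miR-34c-5p.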

Other observations

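After miR-3584-5p, the miRNAs closest to miR-34b-5p over the 8 arrays were miR-6215, miR-10b-3p, miR-30b-3p and miR-200b-5p, with r of 0.676, 0.656, 0.639 and 0.630. That of miR-3584-5p went from 0.689 to 0.248 without nephrectomized replicate 3 and to 0.912 without nephrectomized replicate 4. That of miR-6215 went to 0.336 without nephrectomized replicate 3 and 0.913 without nephrectomized replicate 2, and that of miR-30b-3p to 0.336 without nephrectomized replicate 4. In the deposited table these were 0.975 and 0.053.

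Markers of other cell types gave these values beside the family. The summed scaled signal of the red cell list, miR-451-5p and the undetected miR-144-3p at the floor value, ran from 42.9 to 91.6 in sham and from 45.7 to 112 in nephrectomized kidneys. The leukocyte list ran from 258 to 285 and from 244 to 281, and the endothelial list, miR-126a of both arms, from 1203 to 1286 and from 1136 to 1205. The list of smooth muscle and fibroblasts ran from 1205 to 1272 and from 1155 to 1304. Of the neuronal list, miR-9a-5p was detected on every array and miR-124-3p on none, and of the striated muscle list 0 of 3 were detected on any array. In none of these lists did a member pass the test after adjustment in limma, and 0 had an unadjusted p under 0.05, against 0% and 20.2% of all tested miRNAs.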
